A study of Homo sapiens with 2 samples.

Results

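H4K5ac, histone H4 acetylated at lysine 5, was examined at 38 genes of DNA replication and mitosis out of 19974 human protein-coding genes (autosomes and X). The genes were taken by RefSeq symbol, and all 38 matched. They fall into 4 role groups: 10 genes of origin licensing and firing, 7 of DNA synthesis, 9 of mitosis, and 12 encoding cyclins, cyclin-dependent kinases (CDKs), E2F factors and FOXM1. The data come from chromatin immunoprecipitation followed by sequencing in FaDu, an established head and neck cancer cell line. One group was FaDu cells in normoxia and the other was FaDu cells kept at 1% oxygen for 18 h, with 1 library each. No label assigns the METTL4 knockdown of the culture protocol to either library, and H4K5ac is the target in the sample labels whereas the design text names another mark. There are no replicates, so differences between the conditions describe these 2 libraries and were not tested. A change in the number of cells carrying the mark and a change in the mark per cell cannot be told apart in such bulk samples.

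Acetylation of histone H4 is carried by nucleosomes that flank the starts of active genes. Before S phase, origins of replication are licensed when CDC6 and CDT1 load the ring of MCM proteins onto DNA. CDC45 and the GINS complex then turn this ring into the active helicase. Genes for these factors and for DNA synthesis are classical targets of E2F transcription factors. Genes for entry into mitosis are controlled instead through CCAAT boxes, bound by NF-Y, and the cell cycle genes homology region (CHR), bound by the DREAM and MMB complexes with FOXM1.

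The normoxia list held 120033 peaks and the hypoxia list 258195. Read totals are not given, so depth is known only through the peaks. The lowest local background of any peak was 3.13 reads in normoxia and 3.24 in hypoxia, and the narrowest peaks were 245 and 215 bp wide. Of 10 markers of squamous epithelium, 9 had a peak at a gene end in normoxia and 10 in hypoxia. Of 7 markers of other lineages the numbers were 1 (SYP) and 4, and PTPRC, ALB and MYH6 had none in either list.

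The promoters of 32 members are in the RefSeq table (GRCh38.p14), with a start site and strand. MCM4, MCM5, AURKA, CCNE2, CDK2 and FOXM1 are not among them. The 3 exact E2F-type motifs (TTTGGCGC, TTTCGCGC and TTTCCCGC), the CHR motif TTTGAA, the CCAAT box and the core of the hypoxia response element, ACGTG, were searched on both strands. The window ran from 250 bp before to 50 bp after the outermost start. Where TTTGGCGC and TTTCGCGC face each other they overlap, as at both sites of MCM6, and each was counted. An E2F-type motif lay in 14 of 32 member promoters (43.8%), against 3.77% of all 15813 promoters. TTTGAA lay in 10 (31.3%, against 12.2%), CCAAT in 24 (75.0%, against 36.4%) and ACGTG in 12 (37.5%, against 23.7%). The members were richer in CpG than the promoters as a whole, with a median of 30 CpG per 300 bp against 22.

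The E2F-type motifs and TTTGAA divided by role, and CCAAT did not. E2F-type motifs were found in 7 of 8 licensing promoters, 4 of 7 synthesis promoters, 3 of 9 of the cyclin, CDK and E2F promoters, and 0 of 8 mitosis promoters. TTTGAA was found in 6 of 8 mitosis promoters and 0 of 8 licensing promoters. CCAAT was found in 5 of 8 licensing promoters and 5 of 7 synthesis promoters. It also lay in 7 of 8 mitosis promoters and 7 of 9 of the cyclin, CDK and E2F promoters. A match describes these letters in this window and is not a binding site. The first 3 sequences below are the 250 bp before the start of genes with E2F-type motifs, whose matches are in capitals on either strand. These genes are the MCM helicase subunit MCM6, the GINS subunit GINS2 and the transcription factor E2F1. They are shown because their hypoxia to normoxia ratios in reads (1.20, 1.11 and 0.71) lay below the median of all genes, 1.43. The counting interval of MCM6 (0.96 to 1.51) held that median. All 6 sequences were chosen after the ratios were seen. The CCAAT matches of the first 3 (2 in MCM6, 1 in GINS2 and 3 in E2F1, on either strand) were left in lower case.
MCM6 (chr2:135876444-135876693, minus strand): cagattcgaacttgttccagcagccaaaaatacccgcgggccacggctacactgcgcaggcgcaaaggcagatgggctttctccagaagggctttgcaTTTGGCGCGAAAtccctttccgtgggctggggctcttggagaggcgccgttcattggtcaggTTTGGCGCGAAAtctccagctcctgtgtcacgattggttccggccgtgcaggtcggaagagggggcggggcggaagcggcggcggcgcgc
GINS2 (chr16:85688955-85689204, minus strand): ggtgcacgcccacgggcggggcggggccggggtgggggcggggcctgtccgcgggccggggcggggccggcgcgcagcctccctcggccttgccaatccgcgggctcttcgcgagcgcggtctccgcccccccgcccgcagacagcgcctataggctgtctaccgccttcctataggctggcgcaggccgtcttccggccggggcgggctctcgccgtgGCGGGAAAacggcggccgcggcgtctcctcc
E2F1 (chr20:33686386-33686635, minus strand): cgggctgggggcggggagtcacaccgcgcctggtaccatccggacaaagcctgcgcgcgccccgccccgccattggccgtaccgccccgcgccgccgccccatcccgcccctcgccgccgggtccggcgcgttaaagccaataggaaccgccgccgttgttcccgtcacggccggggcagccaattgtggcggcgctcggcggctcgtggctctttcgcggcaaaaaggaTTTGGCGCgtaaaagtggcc
The next 3 sequences are the same stretch of genes acting in mitosis, with TTTGAA and CCAAT (or its reverse complement ATTGG) in capitals. They are shown because the genes of the proliferation antigen MKI67 and the B-type cyclins had high ratios. In MKI67 the second TTTGAA overlaps an ATTGG by 1 base. CCNB1 has 2 CCAAT boxes and no TTTGAA.
MKI67 (chr10:128126424-128126673, minus strand): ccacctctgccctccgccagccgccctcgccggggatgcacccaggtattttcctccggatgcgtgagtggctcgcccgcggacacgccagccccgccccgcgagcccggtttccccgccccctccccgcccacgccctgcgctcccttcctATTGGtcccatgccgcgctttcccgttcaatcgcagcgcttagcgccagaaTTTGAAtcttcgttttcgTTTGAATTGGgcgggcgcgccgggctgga
CCNB1 (chr5:69166900-69167149, plus strand): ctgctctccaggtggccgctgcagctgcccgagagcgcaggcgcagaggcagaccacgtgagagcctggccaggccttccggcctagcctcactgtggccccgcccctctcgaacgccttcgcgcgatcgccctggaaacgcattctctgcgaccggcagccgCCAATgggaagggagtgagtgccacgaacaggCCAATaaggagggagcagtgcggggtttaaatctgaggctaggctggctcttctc
CCNB2 (chr15:59104896-59105145, plus strand): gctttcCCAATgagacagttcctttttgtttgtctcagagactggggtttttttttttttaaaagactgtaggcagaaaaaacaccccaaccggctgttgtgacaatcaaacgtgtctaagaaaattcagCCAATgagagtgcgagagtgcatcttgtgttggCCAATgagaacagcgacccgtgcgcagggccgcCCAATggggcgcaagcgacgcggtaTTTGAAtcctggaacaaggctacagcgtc

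Each of the 38 members had an H4K5ac peak at a gene end under both oxygen levels. A gene end here is the 1000 bp either side of each end of the gene span. Of all protein-coding genes 69.3% did. All 38 also had a strong peak there in each list, against 59.5% of all genes, where strong means a −log10 q-value of 10 or more. The weakest was that of BUB1, a spindle checkpoint kinase, with a −log10 q-value of 17.7 in normoxia. The highest peaks of both lists lay at the same end of the gene in all 38, against 96.7% of all genes marked in both. Their summits lay within 200 bp of each other in 35 members, against 76.9%. Both ends of the gene had a peak in 5 members in normoxia (10.5% of all genes) and 12 in hypoxia (21.1%), so the members differed in how many ends were marked and not in having a marked end.

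The fold of a peak is the authors' value, its enrichment over the local background of its own library, and ranks peaks within a list only. The median fold of the highest gene-end peak was 6.89 for members in normoxia, against 6.0 for all genes marked in both conditions. In hypoxia these medians were 8.85 and 7.85. Members above the median of all genes numbered 24 in normoxia and 23 in hypoxia. The list thus lay a little above the middle of marked genes in each library, with a wide range from 4.51 to 12.4 in normoxia and from 4.75 to 18.1 in hypoxia.

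To compare the libraries in reads, the pileup, which is the number of reads covering the peak summit, was solved from each fold and p-value. The median pileup at the highest gene-end peak over all 13849 genes marked in both was 77 reads in normoxia and 111 in hypoxia, and the median hypoxia to normoxia ratio was 1.43 (middle 50% of genes, 1.23 to 1.67). This ratio of raw reads takes in any difference in depth and fragment length, so a member is read against 1.43 and not against 1. Members had medians of 103 and 139 reads and a median ratio of 1.31. Their median local background was 14.3 reads in normoxia and 13.9 in hypoxia, where that of all genes was 11.6 and 12.5. Of the 38, 25 lay below the median of all genes, where 50% of genes lie by definition, and 13 above. A ratio under 1 was found for 3 members (7.89%), near the 7.57% of all genes. The counting interval lay wholly below the median of all genes in 7 members (CDC45, MCM5, MCM7, GINS2, POLE, CDK2 and E2F1), against 10.7% of all genes. It lay wholly above in 2 members, against 7.59%. Of the 7 below, the peaks of CDC45 (UFD1), MCM7 (AP4M1), POLE (PXMP2) and CDK2 (PMEL) also overlap the end window of the gene in brackets. Their reads cannot be assigned to 1 gene.

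**Figure D1:**
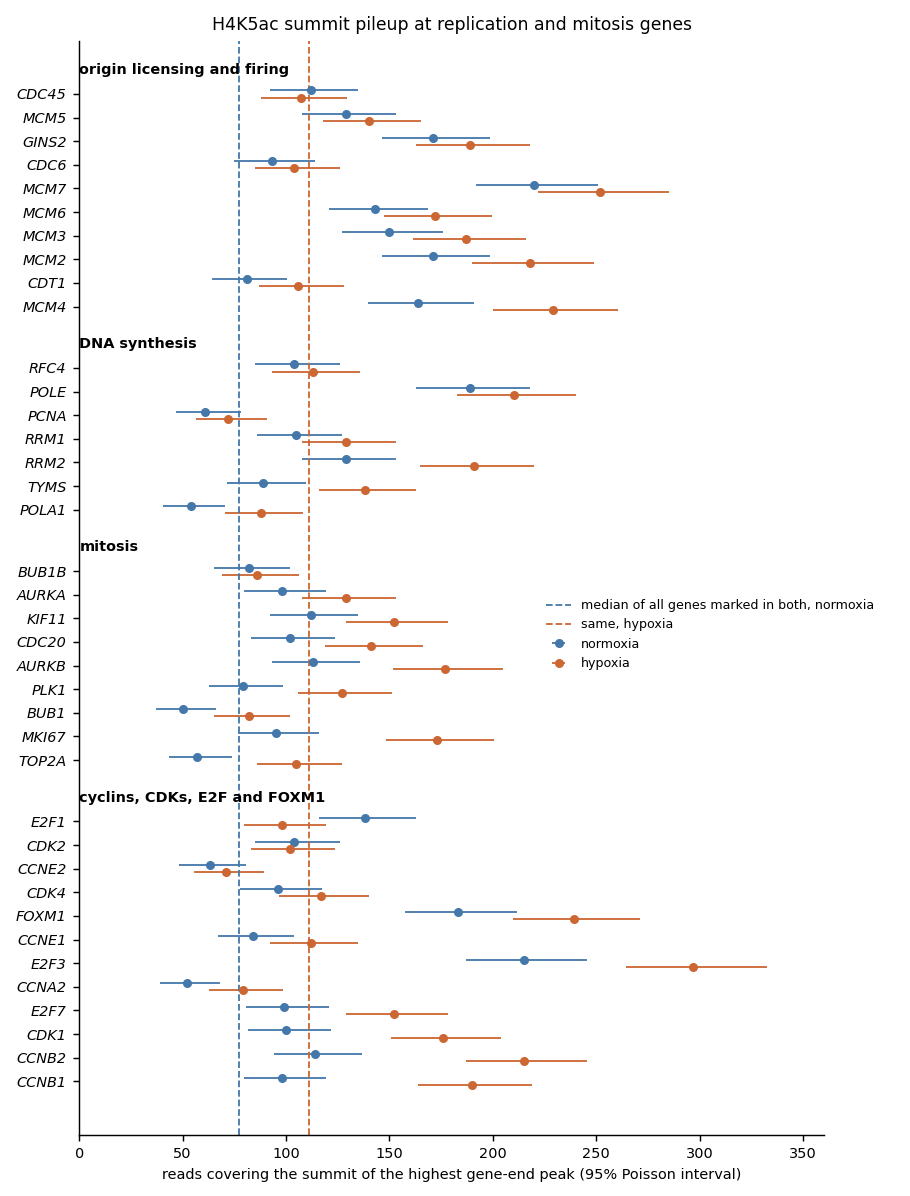
Reads covering the summit of the highest gene-end peak (x axis) for each member (y axis, by role and in order of ratio) in normoxia and hypoxia. Bars are 95% Poisson intervals of counting error and dashed lines are the medians of all genes marked in both, 77 and 111 reads. E2F1 is the member whose hypoxia value lies furthest below its normoxia value.

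Licensing genes had the lowest ratios of the 4 groups. Their median was 1.17, and all 10 lay below the median of all genes. Of 14 other licensing and firing genes marked in both, from a separate list described below, 8 did, with a median of 1.31. The licensing members were also the most heavily covered of the 4 groups, with median pileups of 147 reads in normoxia and 180 in hypoxia. The 6 subunits of the MCM helicase, which unwinds DNA ahead of the fork, ranged from 1.09 (MCM5) to 1.40 (MCM4). MCM2 had 171 reads in normoxia and 218 in hypoxia. MCM3 had 150 and 187, and MCM4 had 164 and 229. The counting intervals of these 3 ratios held the median of all genes. MCM5 had 129 and 140, MCM6 143 and 172, and MCM7 220 and 252. MCM7 had the highest pileup of the licensing genes in both libraries. The interval of MCM6 also held the median of all genes, while those of MCM5 and MCM7 lay wholly below it.

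MCM3 had the highest fold of all members. The fold was 12.4 in normoxia (chromosome 6, 52284101 to 52284813), at a −log10 q-value of 107. It was 18.1 in hypoxia (52284179 to 52284795), at 164. These folds lay above those of 99.3% of marked genes in each list. In hypoxia MCM2 followed among the licensing genes, with a fold of 13.8, above the 12.9 of MCM6. In normoxia the order was the other way, with 9.62 for MCM2 and 11.8 for MCM6 (MCM2 peak at chromosome 3, 127597900 to 127599177 in normoxia). The lowest in hypoxia were CDT1, the licensing factor that geminin inhibits, at 4.75 (5.15 in normoxia), and MCM5, at 6.86 (6.23). In normoxia CDC6 (5.07) and MCM4 (5.13) were lower still.

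The loading factor gene CDC6 had 93 reads in normoxia and 104 in hypoxia. GINS2 had 171 and 189, a ratio of 1.11. CDC45, the helicase activator (chromosome 22, 19479466 to 19520612), had 112 and 107, a ratio of 0.96 (95% counting interval 0.73 to 1.26). It was the only licensing gene with fewer reads in hypoxia, by less than counting error. Its folds were 7.32 and 8.11, and its peak also overlaps the end window of UFD1, so the reads cannot be assigned to 1 of these genes. CDT1 had 81 and 106 reads, but at different sites. Its summit lay at 225 bp from the start in normoxia and at −350 bp, upstream, in hypoxia, so this ratio of 1.31 compares sites 575 bp apart.

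The synthesis genes spread across the range, with a median ratio of 1.23, 4 of 7 below the median of all genes and 3 above. The lowest were RFC4, a clamp loader subunit, with 104 reads in normoxia and 113 in hypoxia, and POLE, the catalytic subunit of the leading-strand polymerase, with 189 and 210. POLA1, the catalytic subunit of the primase-associated polymerase, had the highest ratio, 1.63 (1.15 to 2.33), with 54 and 88 reads. It also had the highest hypoxia fold of the group, 13.2 (7.36 in normoxia), at chromosome X, 24693832 to 24694325.

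The 2 subunits of ribonucleotide reductase, which makes deoxyribonucleotides, had ratios on either side of the median of all genes. RRM1, the large subunit, had 105 and 129 reads (ratio 1.23), with folds of 6.95 and 9.27. RRM2, the small subunit whose level peaks in S phase, had 129 and 191 reads (ratio 1.48), with folds of 5.07 and 7.30. Their counting intervals, 0.94 to 1.61 and 1.18 to 1.87, overlapped. TYMS, thymidylate synthase, had 89 and 138 reads. POLE had the lowest hypoxia fold of the group, 7.26 (7.18 in normoxia).

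PCNA, the sliding clamp, shows how the choice of start matters. Its outermost annotated start is at position 5126622 of chromosome 20, and the highest summit within 1000 bp lay upstream, at −823 bp in normoxia and −674 bp in hypoxia. That peak overlaps the end window of the neighbouring gene CDS2 and had 61 and 72 reads. At the inner start, 5119958, the highest peak lay 160 and 154 bp downstream. It had 73 and 96 reads, with folds of 7.26 and 11.6, above the folds at the outer start (6.84 and 8.88).

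Mitosis genes had the highest ratios of the 4 groups, with a median of 1.57, 5 of 9 above the median of all genes and 4 below. TOP2A, the topoisomerase that untangles sister chromatids (chromosome 17, 40388525 to 40417896), had 57 reads in normoxia and 105 in hypoxia. This is a ratio of 1.84 (1.32 to 2.59). MKI67 (chromosome 10, 128096659 to 128126423) had 95 and 173 reads, a ratio of 1.82 (1.41 to 2.36). The folds of TOP2A were 5.44 and 8.09. MKI67 had the highest hypoxia fold of the group, 11.6, while its normoxia fold of 7.00 lay below those of BUB1B (7.65) and AURKB (7.26). For both genes the Poisson intervals of the 2 libraries did not overlap, but the counting interval of the ratio held the median of all genes.

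The kinase genes BUB1 (ratio 1.64), PLK1 (1.61), AURKB (1.57) and AURKA (1.32) had lower ratios than TOP2A and MKI67. Of these kinases only AURKA lay below the median of all genes. BUB1 had 50 and 82 reads and AURKB, the kinase of the chromosomal passenger complex, had 113 and 177, with a hypoxia fold of 9.64. AURKA, the centrosomal kinase, had 98 and 129, at a peak shared with the end window of CSTF1. PLK1, which drives mitotic entry and exit, had 79 and 127 reads, but its highest summit lay at −378 bp from the start in normoxia and at 220 bp in hypoxia. Its hypoxia fold, 5.86 (4.51 in normoxia), was the lowest of the group. KIF11, the spindle motor, had 112 and 152 reads. CDC20, the activator of the anaphase-promoting complex, had 102 and 141, with folds of 5.05 and 6.85. BUB1B, a checkpoint protein, had 82 and 86 and was the lowest mitosis gene, with a ratio of 1.05 (0.77 to 1.44).

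Among the cyclin, CDK and E2F genes the ratios ran from the lowest to the highest of all members, with a median of 1.36. CCNB1 and CCNB2, the B-type cyclins that activate CDK1 at mitotic entry, had the highest ratios. CCNB1 (chromosome 5, 69167150 to 69178245) had 98 reads in normoxia and 190 in hypoxia, a ratio of 1.94 (1.51 to 2.5). CCNB2 (chromosome 15, 59105146 to 59125045) had 114 and 215, a ratio of 1.89 (1.5 to 2.39). The folds of CCNB1 were 6.69 and 12.9. These 2 cyclins are the members with counting intervals wholly above the median of all genes. CDK1, their kinase partner, had 100 and 176 reads, a ratio of 1.76 (1.37 to 2.27). CCNA2, the cyclin of S phase and early mitosis, had 52 and 79.

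E2F1, the activator of the S phase genes, had fewer reads in hypoxia by more than counting error. Its peak had 138 reads in normoxia and 98 in hypoxia, a ratio of 0.71 (0.54 to 0.93), and 1.53% of all genes marked in both had a lower ratio. The summits of the 2 libraries were 2 bp apart, and the local background was nearly equal, with 14.2 reads in normoxia and 14.3 in hypoxia. The peak lay at the start of the gene (chromosome 20, 33675477 to 33686385, minus strand), from 33685110 to 33686462 in normoxia and from 33684852 to 33686434 in hypoxia. Its fold was 9.15 among normoxia peaks and 6.47 among hypoxia peaks. Within each list, the E2F1 fold lay above those of 91.3% of genes marked in both in normoxia and 33.2% in hypoxia. E2F1 was also the one member with a counting interval below 1. The share of all genes with such an interval was not computed.

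The other E2F members did not share the low ratio of E2F1. E2F3, a second activator, had 215 and 297 reads under a broad peak of 2808 bp in normoxia and 2264 bp in hypoxia. E2F7, an atypical repressor, had 99 and 152. CDK2, the kinase of S phase entry, had 104 and 102 reads, a ratio of 0.98 (0.74 to 1.30), at a peak that touches the end window of PMEL. Its folds were 7.28 and 9.55. CCNE1, an E-type cyclin that activates CDK2, had 84 and 112 reads. CCNE2, the other, had 63 and 71 at summits 399 bp apart. CDK4, the D-type cyclin kinase, had 96 and 117, and FOXM1, the activator of mitotic genes, had 183 and 239. By fold, the highest of the group in hypoxia were CCNB2 (17.2, and 9.97 in normoxia) and CDK1 (15.1 and 9.31). The lowest were CCNE2 (5.84 and 5.04) and E2F3 (5.97 and 5.15).

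**Figure D2:**
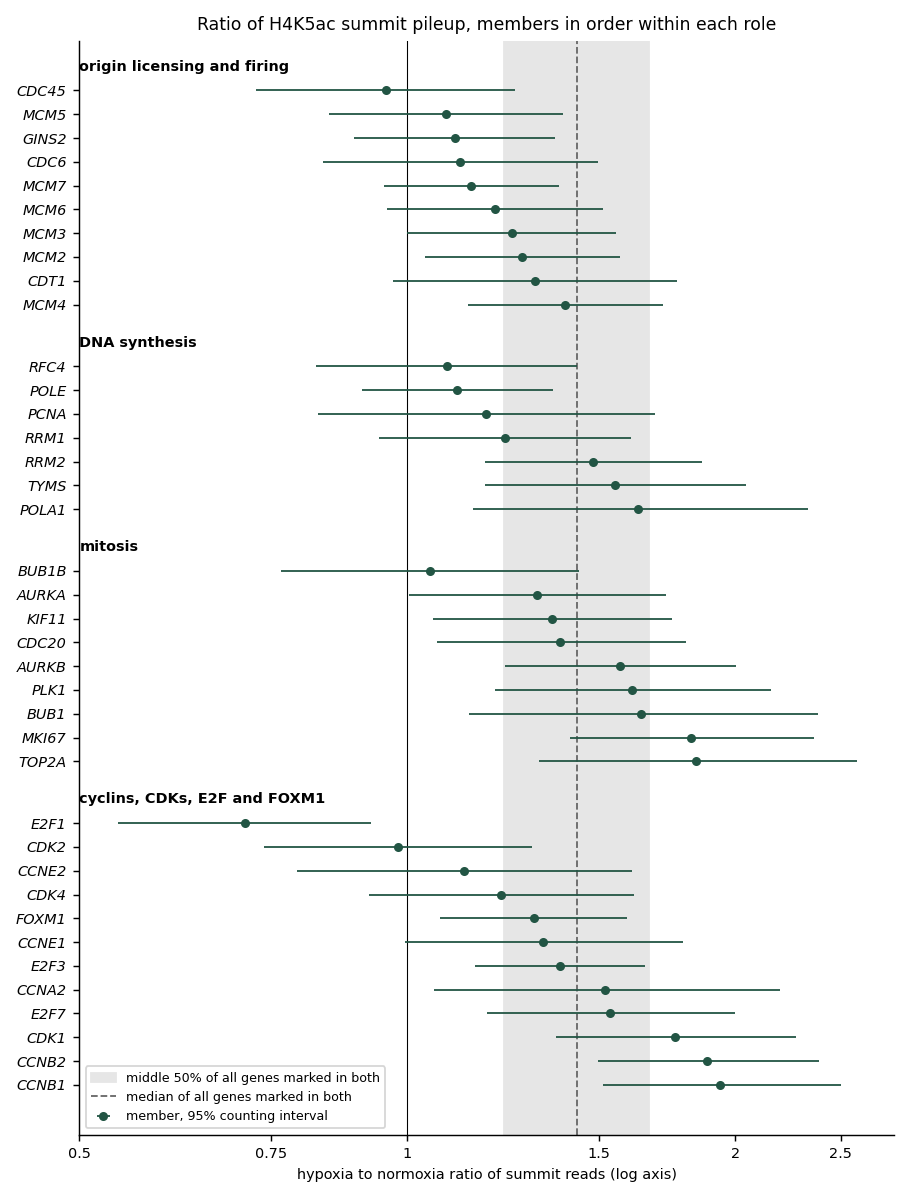
Hypoxia to normoxia ratio of summit reads (log axis) for each member, with 95% counting intervals. The dashed line and band are the median (1.43) and middle 50% (1.23 to 1.67) of all genes marked in both, and the 10 licensing genes all lie left of the line.

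Genes with more reads in normoxia had lower ratios across the genome, and the licensing genes were heavily covered. All genes marked in both were ranked by normoxia pileup and split into 5 bins of nearly equal size. The median ratio was 1.63 in the lowest bin (10 to 41 reads) and 1.33 in the highest (127 to 479 reads), and ratio and bin share the normoxia reads. Divided by the median of their own bin, 9 of 10 licensing ratios were under 1, with a median quotient of 0.88. The quotients were 0.88 for synthesis (4 of 7 lower), 1.09 for mitosis (4 of 9 lower) and 1.00 for the cyclin, CDK and E2F genes (6 of 12 lower). By this measure licensing and synthesis genes were level, and mitosis genes stayed the highest group.

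The ratios also differed by promoter motif within the members. The 12 members with an E2F-type motif and no TTTGAA had a median ratio of 1.19, and 10 of them lay below the median of all genes. The exceptions were TYMS and POLA1. The 8 with TTTGAA and no E2F-type motif had a median of 1.49, with 4 below. The 10 with neither had 1.5, with 4 below, and CDK1 and E2F3, with both, had 1.76 and 1.38. Motif class and role overlap in these genes and cannot be told apart here. Median normoxia pileup moved with the class as well, at 140.5 reads for E2F-type members and 98.5 for TTTGAA members, and its part in the difference was not tested.

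The other genes of the pathway, 89 from a separate list, were nearly all marked too. Both lists had a gene-end peak at 86 of them (69.3% of all genes), and the hypoxia list alone had one at 1 (11.7%). None was marked in normoxia only, against 1.08% of all genes. ORC1, the largest subunit of the origin recognition complex, was the hypoxia-only gene, where its peak was weak (fold 2.89, −log10 q-value 4.16). Away from its ends it held 2 peaks in normoxia and 6 in hypoxia. RPA3, a single-strand DNA binding subunit, and CDKN1A, the CDK inhibitor p21, had no gene-end peak in either list but held peaks inside their spans (5 and 9 for RPA3, 3 and 2 for CDKN1A).

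By role, the median ratio of these other genes was 1.31 for licensing, 1.26 for synthesis, 1.42 for mitosis, and 1.38 for cyclins, CDKs, E2F and RB genes. All 4 medians lay below the 1.43 of all genes, and synthesis, not licensing, had the lowest. Of the other licensing genes 8 of 14 lay below 1.43, unlike the licensing members, which all did. A ratio under 1 was found for 6 of the 86 other genes marked in both (6.98%), near the 7.57% of all genes. The lowest was CCND1, with 394 reads in normoxia and 179 in hypoxia, a ratio of 0.45 that lay below that of E2F1. The 14 with an E2F-type motif and no TTTGAA had a median of 1.19, and 12 of 14 lay below the median of all genes. They included the polymerase subunits POLA2 and POLE2, the clamp loader RFC3, the ligase LIG1 and the GINS subunit GINS3. The 2 above the line were GINS1 and CDC25A, and the 18 with TTTGAA alone had a median of 1.44, with 9 below. The 38 with neither had 1.36, with 21 below, lower than the members with neither. Outside both lists, 442 genes with an E2F-type motif alone had a median of 1.42, and 52.0% lay below the median of all genes. The 1009 with TTTGAA alone had a lower median there, 1.39, with 54.2% below, so the order of these classes was reversed. The 51 with both had 1.32 and the 9659 with neither had 1.43. The difference between these genes and the pathway lists was not tested.

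**Figure D3:**
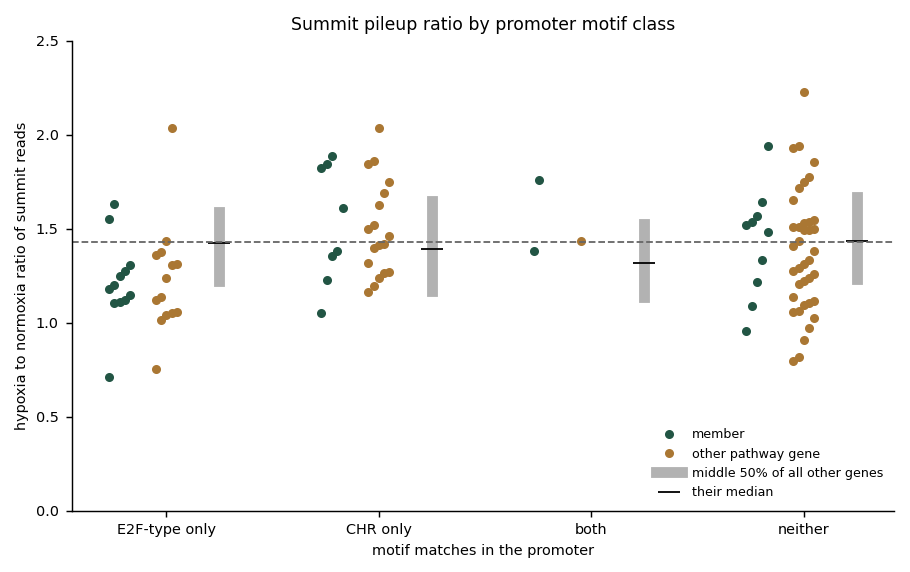
Hypoxia to normoxia ratio of summit reads (y axis) by the motifs in the promoter (x axis), for members, other pathway genes and, as grey bars with a median tick, the middle 50% of all other genes. The dashed line is 1.43, the median of all genes marked in both, and 10 of 12 members and 12 of 14 other pathway genes with an E2F-type motif alone lie below it.

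Around the start, the members showed a gap in the mark just upstream and near-complete cover downstream. At 200 bp downstream of the start a peak covered 31 of 32 members in normoxia and 30 in hypoxia, against 89.0% and 90.3% of 10957 genes with a peak within 1000 bp of the start in both lists. At 150 bp upstream a peak covered 10 of 32 in each list (31.3%), against 54.3% and 55.3%. This distance was chosen after the profile was seen. CDT1, CDC45 and MCM2 of the licensing genes, RFC4, RRM1, RRM2 and TYMS of the synthesis genes, and AURKB were covered there in both lists. PLK1 was covered there in hypoxia only. E2F7 was likewise covered in hypoxia only, and CCNB2 and CDK1 in normoxia only.

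**Figure D4:**
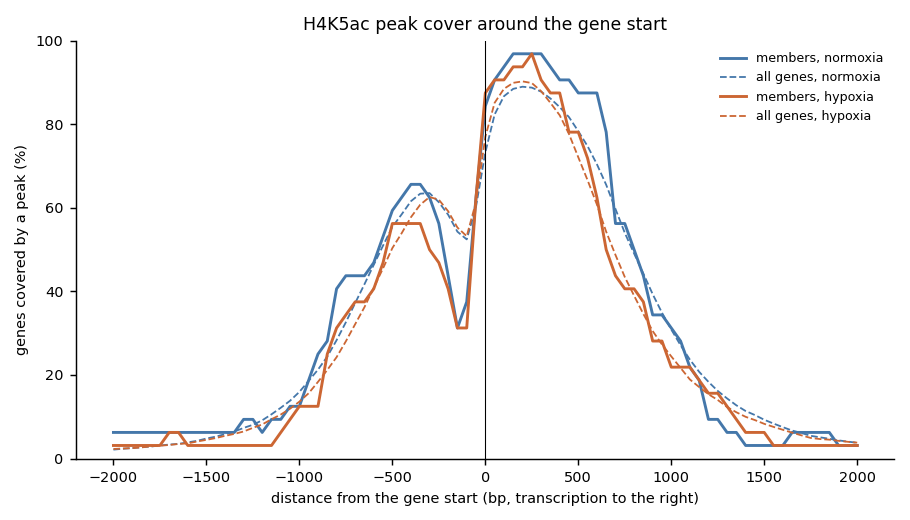
Share of genes covered by a peak (y axis, %) by distance from the start (x axis, bp), for the 32 members with a start site (solid) and for all genes with a peak within 1000 bp of the start in both lists (dashed). At 150 bp upstream the members dip to 31.3% in each library, below the 54.3% and 55.3% of all genes.

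The highest summit near the start lay downstream of it in 23 of 32 members in each list (71.9%), near the 70.3% of all genes in normoxia and 70.7% in hypoxia. Its median position was 199.5 bp downstream in normoxia and 164 bp in hypoxia, close to the 195 and 176 bp of all genes. MCM2 (179 and 164 bp), CCNA2 (211 and 223 bp) and E2F1 (293 and 295 bp) are typical. CCNE1 had its highest summit upstream instead, at −597 and −589 bp. That of CDC20 lay at −464 and −423 bp, and that of E2F7 at −368 and −348 bp. The summits of the 2 libraries lay within 100 bp of each other in 26 of 32 members (81.3%, against 68.7% of all genes), and the median shift was 28 bp (50 bp for all genes).

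Peaks covered less of the start region in the hypoxia list. Within 1000 bp either side of the start the median length covered was 1253 bp in normoxia and 1010 bp in hypoxia. With strong peaks only, these medians were 1060 and 994.5 bp. With all peaks the covered length was smaller in hypoxia for 22 of 32 members (68.8%), which is near the 66.5% of all genes. The largest differences were at RRM1 (1809 and 1194 bp), PCNA (1255 and 670 bp), CDT1 (1573 and 990 bp) and CCNB2 (1232 and 700 bp). CCNB2 and CCNB1 (1111 and 718 bp) thus had narrower cover and a higher summit in hypoxia. TOP2A was covered over more of the region in hypoxia, 640 and 1110 bp. The narrowest peak differs between the lists by 30 bp, and what part that has in these lengths was not tested.

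Inside the gene spans, away from the ends, the hypoxia list held more peaks. The members held 49 such inner peaks in normoxia and 160 in hypoxia, a ratio of 3.27 (95% counting interval 2.36 to 4.59). Over all genes the ratio was 2.28. The interval treats each peak as a separate count and does not cover the spread between genes. The 89 other pathway genes held 250 and 566 inner peaks, a ratio of 2.26, so the higher ratio of the members was not seen there. Per 10 kb of gene there were 0.37 and 1.22 inner peaks for members. The values were 0.57 and 1.29 for the other pathway genes, and 0.43 and 0.98 for all genes. Inner peaks were more numerous in hypoxia in 26 of 38 members, against 56.8% of all genes, equal in 12 and fewer in none. The 8 members without an inner peak in either list, among them CDK4, CDC20 and CCNA2, were at most 12.3 kb long.

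The largest numbers in hypoxia lay in 4 long genes, whereas in normoxia TOP2A (6) and CCNE2 (5) held the most. KIF11 (62.3 kb) held 4 inner peaks in normoxia and 18 in hypoxia, and POLA1 (303.1 kb) held 1 and 16. E2F3 (91.8 kb) held 4 and 16, and BUB1B (60.1 kb) held 4 and 13. Without POLA1 the ratio over the other members was 3.0. Over whole spans, ends included, strong peaks numbered 42 in normoxia and 53 in hypoxia, a ratio of 1.26 that lay below the 1.47 of all genes. With only as many hypoxia peaks as the normoxia list has, taken from the strongest down, whole spans held 92 and 97 peaks, a ratio of 1.05 in place of 2.26. Over all genes these ratios were 0.99 and 2.05. Neither restriction was applied to inner peaks alone.

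**Figure D5:**
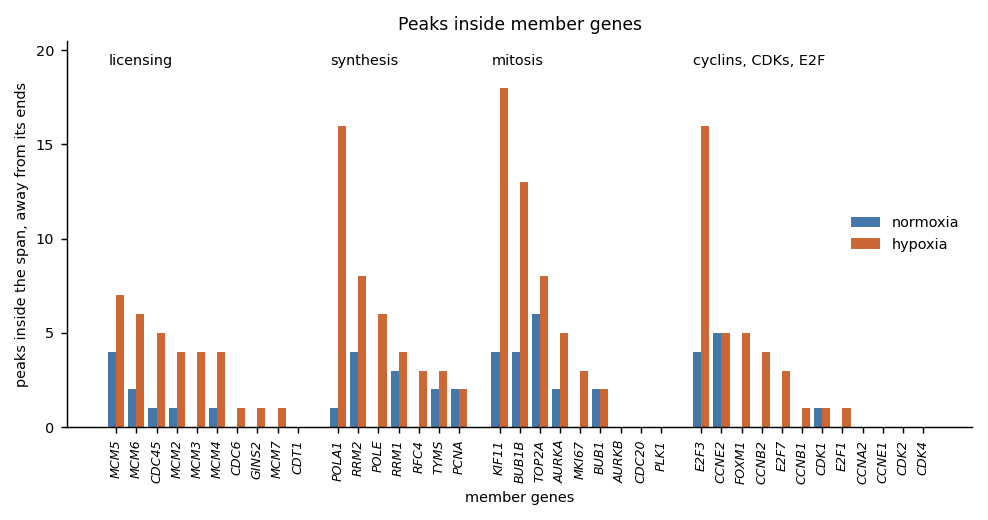
Number of peaks inside each member's span and away from its ends (y axis) in normoxia and hypoxia, by role group (x axis). KIF11, POLA1, E2F3 and BUB1B hold 13 to 18 such peaks in hypoxia and 1 to 4 in normoxia.

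The far end of the gene was seldom marked. A peak at the end opposite the start, other than those at the start, was found in 3 of 32 members in normoxia and 8 in hypoxia, against 12.3% and 23.1% of all genes. POLE, KIF11 and E2F1 had one in both lists. GINS2, RFC4, MKI67, PLK1 and BUB1B had one in hypoxia only. Some marks are shared with neighbouring genes. The highest peak of 14 members in normoxia and 13 in hypoxia overlapped the end window of another protein-coding gene, as for MCM4 with PRKDC, MCM2 with TPRA1 and FOXM1 with RHNO1. The share of all genes with such an overlap was not computed, so these counts are not read as a trait of the members.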

How the data were processed

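H4K5ac ChIP-seq of FaDu cells in normoxia and hypoxia (1 library each, 75 bp single-end reads, per the labels) was available as 1 deposited peak list per library. The submitters' processing notes name hg38, MACS2 and SICER for the peaks, which the authors deposited as 1 list per library. The sources used here do not give versions, settings or a control. A deposited peak carries a score, a fold (a ratio to local background) and −log10 p-values and q-values. The deposited score, a whole-number form of the authors' −log10 p-value, was not used. The summit offset is a deposited position.

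Pileup and background were solved from fold = (pileup + 1) / (background + 1) and a Poisson p-value, and the −log10 p-value was met within 0.001 for all but 2 hypoxia peaks. The solution and the gene assignment were tested on simulated data. Gene spans and starts came from RefSeq (GRCh38.p14, the assembly hg38 names), and overlap meant at least 1 bp. Intervals are exact Poisson or Clopper-Pearson at 95% and cover counting error only. Python 3.11.15, scipy 1.17.1 and pandas 2.3.3 were used. Every member is named. Reads and folds are given for the 2 highest and 2 lowest by hypoxia fold in each role group and the 3 highest and 3 lowest by pileup ratio. Of the other pathway genes, those not marked in both lists are named, and those named by motif or ratio were chosen after their values were seen. The members and lists were chosen with earlier results of these data known. Alternatives were window size, thresholds, list length, stitching and peak choice.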

Additional observations from a re-analysis of the deposited data

How the results depend on the processing

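All 38 members stayed marked in both lists with windows of 500 or 2000 bp, an overlap of 100 bp, strong peaks only, or a hypoxia list cut to the length of the normoxia list. At a −log10 q-value threshold of 20, 37 had a gene-end peak in both lists, without BUB1. Span peaks numbered 42 in normoxia and 53 in hypoxia (ratio 1.26) with strong peaks only, and 97 in hypoxia (ratio 1.05) with equal list lengths, against 92, 208 and 2.26. Median start cover was 765 and 675 bp in a 500 bp window, and 1060 and 994.5 bp with strong peaks only, which narrows the gap between the lists. With starts only, with background subtracted and, an alternative chosen after seeing the data, with summits within 200 bp, the median pileup ratio ran from 1.32 to 1.37 for members, 1.15 to 1.20 for licensing, 1.47 to 1.62 for mitosis and 1.38 to 1.52 for the cyclin group. With background subtracted 9 of 10 licensing genes, not 10, lay below the median of all genes. Depth is not stated, so ratios are read only against all genes. No paired analysis was possible because each condition has 1 library.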
